A study of Homo sapiens with 4 samples.

Results

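The genes of the mitochondrial protein import machinery were measured in HCT116, a colon cancer cell line, and comprised 31 genes out of the 19777 that had a probe set of their own on the array. Members were taken by symbol from the platform's probe annotation, among probe sets listed for 1 gene only: the TIMM and TOMM genes, SAMM50, the metaxins MTX1 to MTX3, PAM16, GRPEL1 and GRPEL2, and PMPCA and PMPCB. TOMM6 and TOMM7 were not analysed here. Cells were cultured in hypoxia (1% oxygen) or in normoxia (21% oxygen) for 72 h, and both groups had first been without serum for 24 h. Each group held 2 arrays, labelled exp A or exp B. The labels do not say whether these were separate cultures, so the p-values measure the spread between these arrays, which may be technical. Values are MAS5 signals in linear units. Each log2 difference is the hypoxia mean minus the normoxia mean of log2(signal + 23.7), so changes of dim genes are understated. In these bulk samples fewer transcripts per cell and fewer cells with the transcript cannot be told apart.

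Nearly all mitochondrial proteins are made in the cytosol and imported. The TOM complex receives precursors at the outer membrane, the SAM complex inserts barrel-shaped proteins there, small TIM chaperones escort hydrophobic precursors across the intermembrane space, and the TIM22 and TIM23 complexes insert or translocate precursors at the inner membrane. A motor pulls them into the matrix, where a processing peptidase removes the targeting presequence. Respiratory chain subunits are among its main cargoes, and low oxygen is known to shift cells from respiration to glycolysis.

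The promoters of 6 members are shown, chosen after the values were seen, so that genes called in either direction can be compared. TOMM20, TIMM9 and TIMM17A were the members called higher in hypoxia, and TIMM10, TIMM13 and TOMM70 were among those called lower. TIMM10 and TIMM13 each encode the partner subunit of another small TIM (TIMM9 and TIMM8A). Sequences run 5′ to 3′ from 250 bases before to 50 bases after the gene's start in RefSeq's annotation of GRCh38.p14, and 28 of the 31 members had an entry. Capitals mark every match, on either strand, to CGCATGCG (the core of the NRF1 motif), CCGGAAG (the core bound by ETS factors such as GABPA), CACGTG (the E-box) or ACGTG and GCGTG (cores of the hypoxia response element). A CACGTG match also holds ACGTG on both strands.
TOMM20 (chr1:235128788-235129087, minus strand): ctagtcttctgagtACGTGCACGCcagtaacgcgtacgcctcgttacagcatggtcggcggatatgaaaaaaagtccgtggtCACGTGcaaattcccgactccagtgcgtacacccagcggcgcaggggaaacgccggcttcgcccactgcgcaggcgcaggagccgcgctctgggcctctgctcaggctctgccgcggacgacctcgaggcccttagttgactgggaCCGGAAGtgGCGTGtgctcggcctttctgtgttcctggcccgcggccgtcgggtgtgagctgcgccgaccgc
TIMM9 (chr14:58427482-58427781, minus strand): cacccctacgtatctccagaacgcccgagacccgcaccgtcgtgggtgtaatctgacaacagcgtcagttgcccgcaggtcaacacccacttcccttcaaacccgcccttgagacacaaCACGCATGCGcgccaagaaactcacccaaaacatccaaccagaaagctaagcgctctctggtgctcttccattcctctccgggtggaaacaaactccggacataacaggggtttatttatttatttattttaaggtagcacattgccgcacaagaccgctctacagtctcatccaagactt
TIMM17A (chr1:201955253-201955552, plus strand): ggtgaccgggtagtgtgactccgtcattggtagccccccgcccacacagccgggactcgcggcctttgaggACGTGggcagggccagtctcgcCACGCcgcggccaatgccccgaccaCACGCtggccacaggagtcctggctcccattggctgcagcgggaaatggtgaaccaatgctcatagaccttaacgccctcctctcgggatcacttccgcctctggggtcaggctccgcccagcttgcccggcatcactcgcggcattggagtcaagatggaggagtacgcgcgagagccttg
TIMM10 (chr11:57530705-57531004, minus strand): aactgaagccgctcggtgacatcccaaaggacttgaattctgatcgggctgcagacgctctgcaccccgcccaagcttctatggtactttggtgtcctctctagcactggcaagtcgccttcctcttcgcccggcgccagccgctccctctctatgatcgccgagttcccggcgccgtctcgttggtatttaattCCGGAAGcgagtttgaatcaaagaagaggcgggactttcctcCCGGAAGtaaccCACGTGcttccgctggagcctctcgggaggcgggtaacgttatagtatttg
TIMM13 (chr19:2427537-2427836, minus strand): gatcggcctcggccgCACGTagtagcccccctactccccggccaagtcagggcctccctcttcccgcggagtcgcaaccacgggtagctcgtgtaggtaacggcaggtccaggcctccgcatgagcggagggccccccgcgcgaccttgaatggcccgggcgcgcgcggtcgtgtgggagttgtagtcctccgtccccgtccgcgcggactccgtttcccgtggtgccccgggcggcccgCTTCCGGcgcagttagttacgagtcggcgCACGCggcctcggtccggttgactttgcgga
TOMM70 (chr3:100401040-100401339, minus strand): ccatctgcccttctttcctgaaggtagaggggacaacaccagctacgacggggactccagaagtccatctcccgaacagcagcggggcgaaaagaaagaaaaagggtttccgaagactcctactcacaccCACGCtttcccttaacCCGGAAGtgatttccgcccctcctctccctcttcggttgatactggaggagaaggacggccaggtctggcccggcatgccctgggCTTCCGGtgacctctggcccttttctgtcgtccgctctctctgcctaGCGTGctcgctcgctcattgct

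The ETS core stood in 14 of the 28 member promoters, against 18.7% of the promoters of all tested genes and 10.7% of all 27305 promoters in the table. By call, it was found in 1 of 3 members called higher, 8 of 14 called lower and 4 of 10 not called. In TIMM10 it lay 55 and 13 bases upstream of the start (positions -55 and -13), in TOMM70 at -104 and -19, in TIMM13 at -10 and in TOMM20 at -22. The NRF1 core was in 1 of the 28 promoters, that of TIMM9 at -129, against 3.76% for tested genes. At least 1 of the 2 hypoxia response element cores was present in 23 of the 28, against 62.3% for tested genes and 48.4% for all promoters. Of those called higher, 3 of 3 held one, as did 10 of 14 of those called lower and 9 of 10 of those not called. The E-box was in 4 of 28, against 10.1% for tested genes. These matches describe the sequence only.

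Most import genes had lower signal in hypoxia. A gene was tested where its brightest probe set had a mean signal of at least 97.4, and 30 of the 31 passed. TIMM23 did not, with 13.4 and 27.0 on the hypoxia arrays, against 5.04 and 15.1 on the normoxia arrays. In the limma fit over 12636 genes, 16 members were called lower, where 22.8% of all tested genes were, 3 were called higher, where 15.3% were, and 11 were not called (Benjamini-Hochberg adjusted p at or above 0.05). A called decrease of at least 1 log2 unit was found for 14 members, a class that held 16.2% of all tested genes. The median log2 difference of the tested members was -0.93, beside -0.03 over all genes tested. TIMM8A, TIMM23B and TOMM40L reached the filter through their normoxia signal alone, and without them 14 of 27 were called lower and 3 higher. The called decreases of at least 1 log2 unit include TIMM8A and TIMM23B, and the median includes all 3 genes. Both hypoxia values lay below both normoxia values in 24 members, TIMM8A, TIMM23B and TOMM40L included. That pattern was seen in 37.9% of all tested genes. Both hypoxia values lay above both normoxia values in 3 members, against 34.1% of all tested genes. Of all 4803 genes called, 40.1% were higher in hypoxia. With arrays scaled to the hybridization controls instead, 0.93% of called genes were higher and the median of all tested genes was -1.40. With that scaling 22 members were called lower, beside 5514 of all 12636 genes tested, and none higher, beside 52. TOMM20, TIMM9 and TIMM17A then had negative differences. The members called lower with that scaling but not with the deposited one were PAM16, PMPCA, TIMM10B, TIMM22, TIMM44 and TOMM40L. The mean log2 signal of these controls was 13.3 and 13.1 in hypoxia A and B, against 11.3 and 12.2 in normoxia A and B. The controls thus differed between the normoxia arrays too, which limits this scaling. With the mean of all probe sets of a gene, dim ones included, 1991 of all 12636 genes were called lower and 1400 higher. Of the members 10 were called lower there and none higher. The number called higher was 1 without hypoxia A, 1 without normoxia A and 1 without normoxia B.

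**Figure D1:**
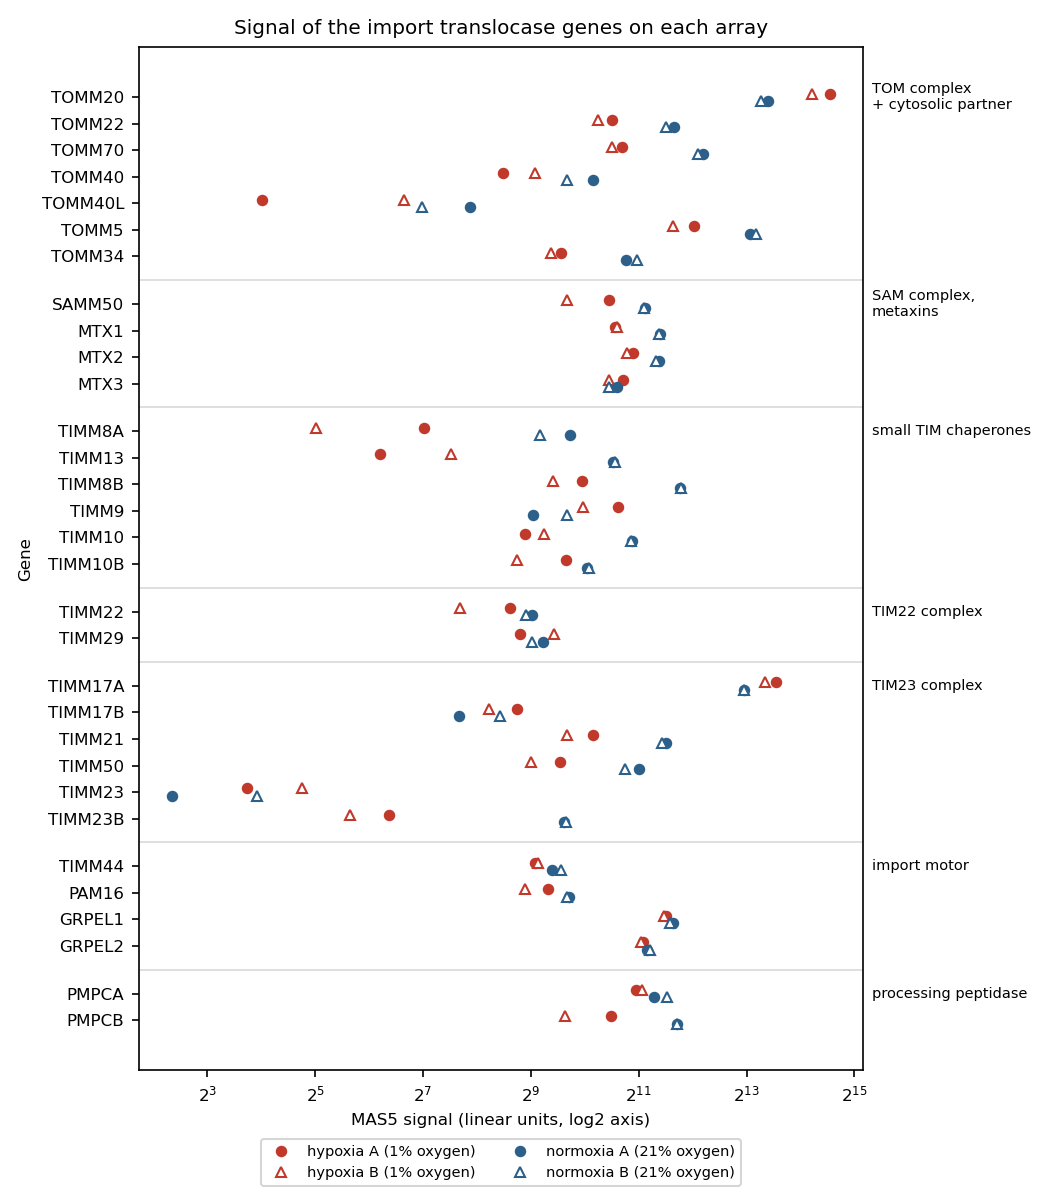
MAS5 signal of the 31 import translocase genes (log2 axis) on each of the 4 arrays, grouped by the complex they belong to, with hypoxia in red above normoxia in blue, circles for exp A and open triangles for exp B. The red points lie to the left of both blue points in most rows, and to the right of both for TOMM20, TIMM9 and TIMM17A, whose direction turned with hybridization control scaling.

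Arrays were checked against their labels. The hypoxia-inducible factor targets NDRG1, VEGFA, EGLN3 and ADM were called higher in hypoxia, 4 of 4 with a probe set of their own. With hybridization control scaling the calls of VEGFA (0.64, adjusted p = 0.359) and ADM (0.64, adjusted p = 0.290) were lost. Of 7 colon epithelial markers, EPCAM, CDH1, KRT8, KRT18 and KRT19 had signals of 4913 or more on every array, while CDX2 and VIL1 were at 217 or less. The summed signal of these 7 ranged from 107773 to 115294 in hypoxia and from 74047 to 87677 in normoxia. No marker was listed at 0. Summed signals were 65.2 and 94.7 in hypoxia against 64.5 and 227 in normoxia for PTPRC and CD3E, the 2 leukocyte markers with a probe set of their own. For 3 endothelial markers they were 270.0 and 303 in hypoxia against 89.1 and 215 in normoxia. The 4 fibroblast markers summed to 2003 and 2632 in hypoxia against 678 and 945 in normoxia, mostly from COL1A1. The ratio of 3′ to 5′ control signal, a measure of RNA integrity, was 1.66 and 1.77 in hypoxia against 1.26 and 1.28 in normoxia for ACTB, and 0.91 and 0.95 against 0.92 and 1.00 for GAPDH. The highest Bacillus control probe set of each array read 305 and 226 in hypoxia A and B, against 45.7 and 121 in normoxia A and B. It is taken as a background level below, on the assumption that its target was not added to the RNA. The part of these values in the differences below was not tested.

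The TOM complex and its cytosolic partner held 7 members, of which 5 were called lower, 1 higher and 1 was not called, with a median log2 difference of -1.29. TOMM70, the receptor for carrier precursors and for cytosolic chaperones that hand them over, had 1646 and 1461 on the hypoxia arrays, against 4676 and 4392 on the normoxia arrays (log2 difference -1.53 ± 0.17 SE, adjusted p = 2.76e-04). Its hypoxia values were about alike and lay far below both normoxia values, and a further probe set was also lower, at -0.70. TOMM22, the central receptor that joins the channels of the complex, had 1446 and 1218 on the hypoxia arrays, against 3239 and 2896 on the normoxia arrays (log2 difference -1.19 ± 0.18 SE, adjusted p = 0.00127). The further probe sets of TOMM22 gave -0.67 and 1.15, the second being dim. Taking each gene's probe set by its median picked the one at -0.67, which was not called (adjusted p = 0.0773), and the mean of its probe sets was not called (-0.24, adjusted p = 0.427).

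TOMM5, a small subunit that stabilizes the complex, had 4142 and 3182 on the hypoxia arrays, against 8605 and 9192 on the normoxia arrays (log2 difference -1.29 ± 0.18 SE, adjusted p = 7.77e-04), with a further probe set at -1.54. The gene of the channel itself, TOMM40, had 359 and 539 on the hypoxia arrays, against 1132 and 813 on the normoxia arrays (log2 difference -1.08 ± 0.30 SE, adjusted p = 0.0191). The groups did not overlap, but the normoxia arrays lay apart, and leaving out normoxia A ended the call (-0.85, adjusted p = 0.241), as did leaving out normoxia B (-1.32, adjusted p = 0.0554). TOMM40L, its paralogue, had 16.2 and 99.6 on the hypoxia arrays, against 234 and 127 on the normoxia arrays, with no call (log2 difference -1.49 ± 0.86 SE, adjusted p = 0.201). Both hypoxia values lay below both normoxia values and under the Bacillus controls. Without hypoxia B the difference was -2.30, in a fit whose spread comes from the normoxia arrays alone. TOMM34, a cytosolic co-chaperone that helps keep precursors unfolded, had 750.1 and 659 on the hypoxia arrays, against 1747 and 1992 on the normoxia arrays (log2 difference -1.38 ± 0.21 SE, adjusted p = 0.00107), with both hypoxia values far below either normoxia value.

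TOMM20, the receptor for presequences, was higher on its brightest probe set, though at -0.41 with hybridization control scaling, with 23918 and 19026 on the hypoxia arrays, against 10822 and 9814 on the normoxia arrays (log2 difference 1.05 ± 0.18 SE, adjusted p = 0.00223). The hypoxia values lay above both normoxia values. Its other probe set, nearly equal in mean signal (15894 against 15895 over the 4 arrays), read 17214 and 11146 in hypoxia against 16966 and 18248 in normoxia, a log2 difference of -0.34 that overlapped at exp A and was not called (adjusted p = 0.252). With such close means the rule decides the direction of TOMM20, and the average over both probe sets was 0.35 (adjusted p = 0.244).

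**Figure D2:**
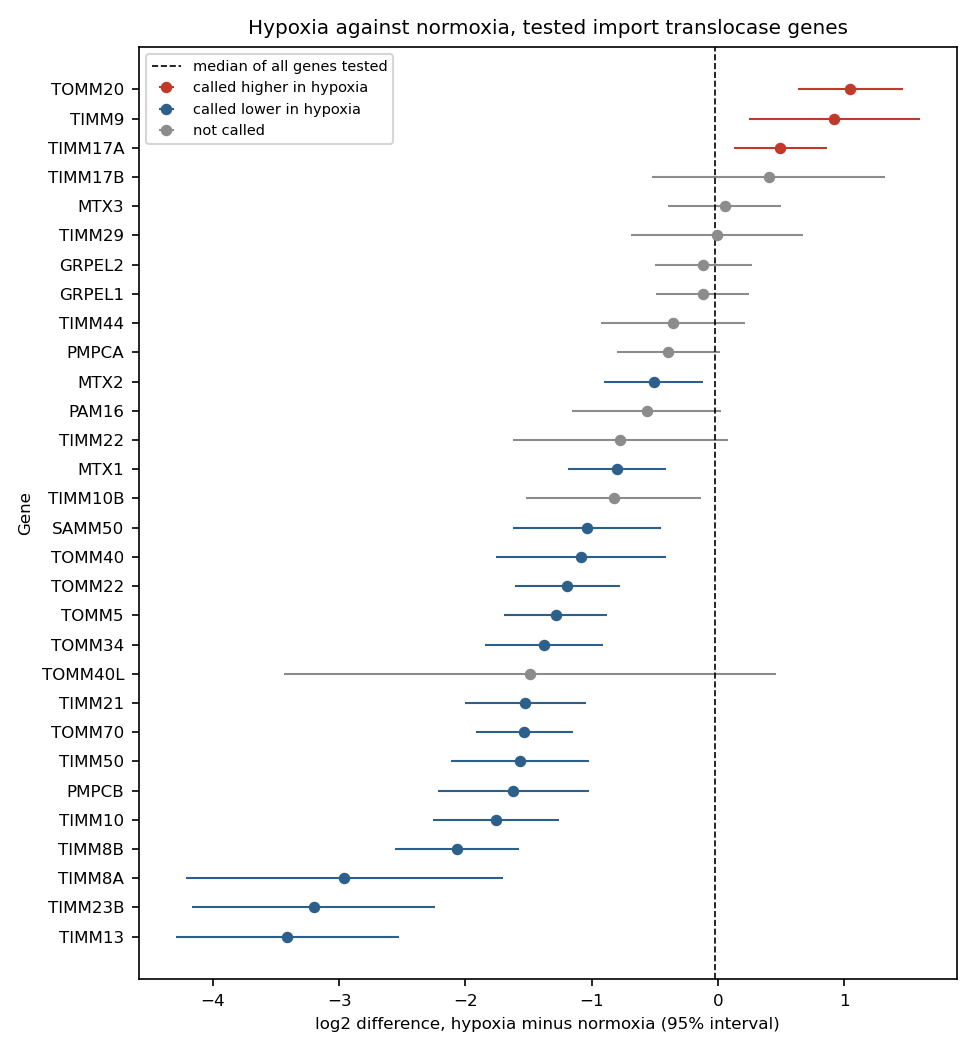
Log2 difference between hypoxia and normoxia for the 30 tested import genes, with 95% intervals from limma, ordered from the largest increase at the top to the largest decrease; colour shows the call and the dashed line the median of all genes tested (-0.03). TOMM20, TIMM9 and TIMM17A lie right of the line with the deposited scaling and had negative differences with hybridization control scaling, while TIMM13, TIMM23B, TIMM8A and TIMM8B lie farthest to the left.

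In the SAM complex and its metaxins, 3 of 4 were called lower and none higher. SAMM50, the barrel that inserts other barrel proteins into the outer membrane, had 1392 and 811 on the hypoxia arrays, against 2223 and 2192 on the normoxia arrays (log2 difference -1.04 ± 0.26 SE, adjusted p = 0.0121). Hypoxia B was the lowest, and a second bright probe set of the gene was lower still, at -1.61. Its 2 dim probe sets, under the filter, gave 1.07 and 0.49, and with the mean of all its probe sets the call was lost (-0.27, adjusted p = 0.659). MTX1 and MTX2, its partners in the outer membrane, were called lower too. MTX1 averaged 1527 ± 17.4 in hypoxia and 2670.4 ± 11.6 in normoxia (SD, n = 2 each, log2 difference -0.80 ± 0.17 SE, adjusted p = 0.00622). MTX2 averaged 1829 ± 100.4 in hypoxia and 2614 ± 79.5 in normoxia (SD, n = 2 each, log2 difference -0.51 ± 0.17 SE, adjusted p = 0.0434). All 3 calls were lost when either normoxia array was left out. The spread in those fits comes from the hypoxia arrays alone, and the differences themselves changed little. Without normoxia A the values were -1.03, adjusted p = 0.0873 for SAMM50, -0.79, adjusted p = 0.130 for MTX1 and -0.48, adjusted p = 0.377 for MTX2. Without normoxia B they were -1.05, adjusted p = 0.0826 for SAMM50, -0.80, adjusted p = 0.124 for MTX1 and -0.54, adjusted p = 0.294 for MTX2. MTX2 also lost its call when arrays were scaled to the 75th percentile (-0.36, adjusted p = 0.123) and under quantile normalization (-0.44, adjusted p = 0.0762). The same held with the mean of all probe sets (adjusted p = 0.0523). With eBayes without trend MTX2 (adjusted p = 0.129), MTX1 (adjusted p = 0.0523) and SAMM50 (adjusted p = 0.0876) lost their calls. MTX3 had a log2 difference of 0.05 with a 95% interval of -0.39 to 0.50.

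The small TIM chaperones included the largest decrease of the brightest probe sets and an increase, with 4 of 6 called lower, 1 higher and 1 not called. Among those called lower, TIMM8A had reached the signal filter through its normoxia signal alone. These proteins form hexamers in the intermembrane space, either of TIMM9 with TIMM10 or of TIMM8A with TIMM13. TIMM13 had 74.0 and 184 on the hypoxia arrays, against 1462 and 1519 on the normoxia arrays (log2 difference -3.41 ± 0.39 SE, adjusted p = 3.07e-04). Its partner TIMM8A, mutated in deafness-dystonia syndrome, had 130.0 and 32.5 on the hypoxia arrays, against 846 and 577 on the normoxia arrays (log2 difference -2.96 ± 0.55 SE, adjusted p = 0.00315). In both genes the hypoxia values were dimmer than the brightest Bacillus control probe set, so the size of the fold rests on values near background. Leaving out normoxia A ended the call of TIMM8A (-2.69, adjusted p = 0.0578). Without 1 array in turn its log2 difference ranged from -3.69 to -2.23 and that of TIMM13 from -3.95 to -2.87. Each gene has 1 further probe set, under the filter at a mean signal of 21.6 for TIMM13 and 57.8 for TIMM8A. That of TIMM13 read 25.1 and 44.7 in hypoxia against 4.80 and 11.5 in normoxia (0.87), and that of TIMM8A 44.5 and 171 in hypoxia against 11.01 and 5.08 in normoxia (1.87). With the mean of all probe sets the calls of TIMM13 (-1.27, adjusted p = 0.0712) and TIMM8A (-0.55, adjusted p = 0.346) were lost.

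TIMM8B, a paralogue of TIMM8A, had 984 and 678 on the hypoxia arrays, against 3461 and 3527 on the normoxia arrays (log2 difference -2.07 ± 0.22 SE, adjusted p = 2.09e-04), a clear separation of the groups. Its second probe set read 731 and 623 in hypoxia against 876 and 801 in normoxia, a difference of -0.30 that had the same sign and a much smaller size, and that was not called (adjusted p = 0.347). TIMM10 had 474 and 606 on the hypoxia arrays, against 1885 and 1859 on the normoxia arrays (log2 difference -1.76 ± 0.22 SE, adjusted p = 4.66e-04), and its other probe set gave -1.73. TIMM10B, which docks the hexamer on the TIM22 complex, averaged 616 ± 265 in hypoxia and 1061 ± 18.4 in normoxia and missed the threshold (log2 difference -0.83 ± 0.31 SE, adjusted p = 0.0602). The hypoxia arrays differed widely there. Without hypoxia A the difference was -1.26, in a fit whose spread comes from the normoxia arrays alone.

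TIMM9, the hexamer partner of TIMM10, was higher in hypoxia, though at -0.50 with hybridization control scaling, with 1569 and 1005 on the hypoxia arrays, against 523 and 811 on the normoxia arrays (log2 difference 0.92 ± 0.30 SE, adjusted p = 0.0375). The groups did not overlap, although the nearest values, hypoxia B and normoxia B, were close. Its call was lost without hypoxia A (0.61, adjusted p = 0.0713), normoxia A (0.62, adjusted p = 0.341) or normoxia B (1.23, adjusted p = 0.0526). For exp A the log2 differences were 1.54 for TIMM9 and -1.94 for TIMM10, and for exp B they were 0.30 for TIMM9 and -1.58 for TIMM10. The partners thus had opposite signs under both letters. The difference between these genes' responses was not tested.

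**Figure D3:**
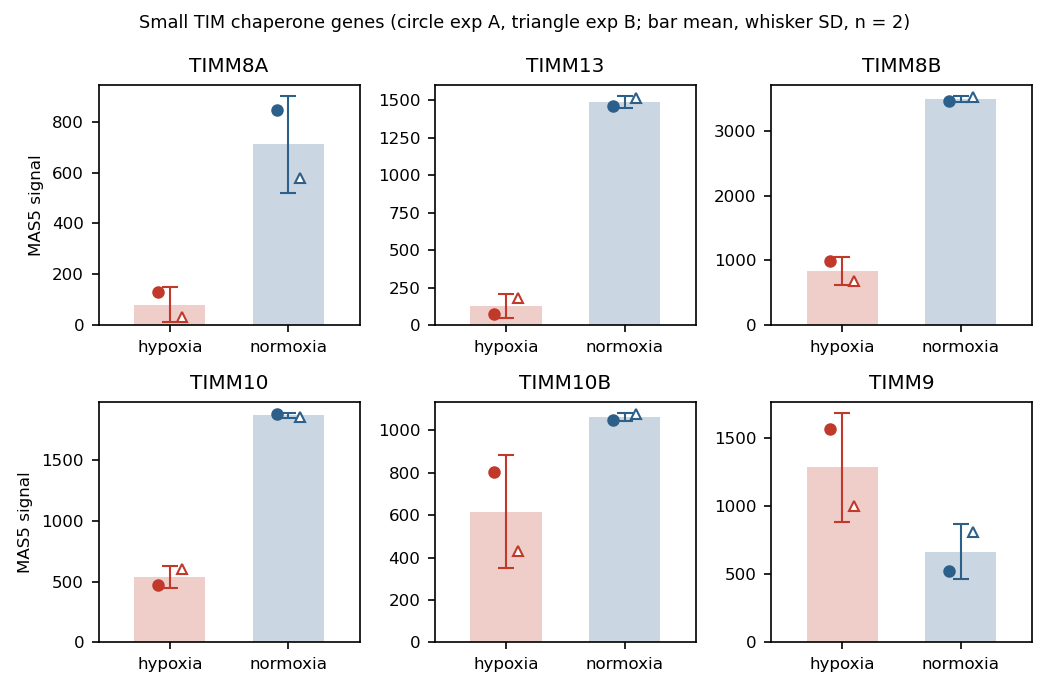
MAS5 signal of the 6 small TIM chaperone genes in hypoxia (red, left) and normoxia (blue, right); bars are means from 0, whiskers SD (n = 2), circles exp A and open triangles exp B. TIMM8A, TIMM13, TIMM8B and TIMM10 have both hypoxia values far below normoxia, TIMM10B spreads widely in hypoxia, and TIMM9 is higher in hypoxia with the deposited scaling (-0.50 with hybridization control scaling).

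In the TIM23 complex, which takes presequence proteins across or into the inner membrane, 3 of 5 tested members were called lower and 1 higher. Among those called lower, TIMM23B had reached the signal filter through its normoxia signal alone. TIMM50, the receptor on the intermembrane side, had 744 and 513 on the hypoxia arrays, against 2049 and 1725 on the normoxia arrays (log2 difference -1.57 ± 0.24 SE, adjusted p = 0.00124), while a dim probe set of the gene gave 0.28 and the mean of both was not called (-0.64, adjusted p = 0.113). TIMM21, which also takes part in assembling the respiratory chain, had 1141 and 816 on the hypoxia arrays, against 2889 and 2756 on the normoxia arrays (log2 difference -1.52 ± 0.21 SE, adjusted p = 7.42e-04). A further probe set of TIMM21 gave -2.14, with hypoxia values (241 and 74.2) under the highest Bacillus controls of those arrays (305 and 226). The probe set listed for TIMM23B, a near copy of the channel gene TIMM23 on chromosome 10, read 82.6 and 50.2 on the hypoxia arrays, against 782 and 802 on the normoxia arrays (log2 difference -3.20 ± 0.42 SE, adjusted p = 5.95e-04). It may read transcripts of both copies, and probe sets listed for both were not used, so the channel gene itself has no usable value here. The hypoxia values of TIMM23B lay under the Bacillus control signal.

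The paralogues TIMM17A and TIMM17B, alternative subunits of the same channel, were the tested members of this complex with positive differences. TIMM17A averaged 11134 ± 1087 in hypoxia and 7888 ± 6.70 in normoxia (SD, n = 2 each, log2 difference 0.49 ± 0.16 SE, adjusted p = 0.0409), and its difference was -0.96 with hybridization control scaling. This was the smallest difference called among the members. A second bright probe set gave 0.65 and a dim one -0.20, and the call was lost in 9 of 17 alternative settings. It was lost without hypoxia A (0.39, adjusted p = 0.0780), normoxia A (0.49, adjusted p = 0.134) or normoxia B (0.49, adjusted p = 0.131), and under quantile normalization (0.30, adjusted p = 0.0888). TIMM17B had a log2 difference of 0.40 with a 95% interval of -0.52 to 1.32, and its groups overlapped.

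Neither subunit of the TIM22 complex, which inserts carrier proteins, was called on its brightest probe set. TIMM22, its channel, averaged 297 ± 129.9 in hypoxia and 503 ± 27.2 in normoxia (SD, n = 2 each, log2 difference -0.78 ± 0.38 SE, adjusted p = 0.134). On hypoxia B it read 205, under the highest Bacillus control of that array (226). Its other probe sets gave -1.61 and -1.30. The first read 179 and 66.2 in hypoxia, under the highest Bacillus controls (305 and 226). The second read 26.5 and 244 in hypoxia against 239 and 286 in normoxia, so its groups overlapped. TIMM22 passed with the mean of all its probe sets (-1.23, adjusted p = 0.0294) and with hybridization control scaling (-2.14, adjusted p = 0.00529). Without hypoxia A, where the spread comes from the normoxia arrays alone, its difference was -1.20. TIMM29, a structural subunit, had a difference of -0.01 with an interval of -0.69 to 0.68, with hypoxia B the highest and hypoxia A the lowest of its 4 values.

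None of the 4 members of the import motor was called with all 4 arrays and the deposited scaling, and their log2 differences ran from -0.57 to -0.12. HSPA9 (-0.94), the HSP70 that drives the motor, and DNAJC19 (-1.46), a J protein of the motor, are not members and were called lower. The call of DNAJC19 was lost with eBayes without trend (adjusted p = 0.0510). In their list, given below, 4 of 6 were called lower, and DNAJC15 (0.07) and HSPD1 (-0.05) were not called. GRPEL1 and GRPEL2, the nucleotide exchange factors of the matrix HSP70, had bright probe sets. GRPEL1 averaged 2875 ± 61.7 in hypoxia and 3128 ± 84.1 in normoxia (SD, n = 2 each), and its log2 difference had a 95% interval of -0.49 to 0.25. GRPEL2 averaged 2136 ± 50.2 in hypoxia and 2319 ± 47.3 in normoxia (SD, n = 2 each), with an interval of -0.50 to 0.27. A second GRPEL1 probe set, nearly as bright, read 2338 and 2006 in hypoxia against 3279 and 3191 in normoxia, a log2 difference of -0.57 outside the interval of the brightest GRPEL1 probe set. With hybridization control scaling the differences were -1.57, adjusted p = 0.0501 for GRPEL1 and -1.56, adjusted p = 0.0568 for GRPEL2. TIMM44, the scaffold that recruits the motor to the channel, and PAM16, a regulatory J-like subunit, had differences of -0.36 (interval -0.92 to 0.21) and -0.57 (interval -1.15 to 0.02), and a second TIMM44 probe set gave -0.73. With hybridization control scaling TIMM44 (-1.76, adjusted p = 0.0241) and PAM16 (-1.97, adjusted p = 0.0116) were called lower. Without hypoxia A, where the spread comes from the normoxia arrays alone, PAM16 had a difference of -0.77. The difference between motor genes and the other members was not tested.

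The matrix processing peptidase is a dimer of PMPCA and PMPCB, and 1 of these was called lower. PMPCB, the catalytic subunit, had 1439 and 792 on the hypoxia arrays, against 3328 and 3344 on the normoxia arrays (log2 difference -1.62 ± 0.26 SE, adjusted p = 0.00165), with hypoxia B the lowest. A dim further probe set read 149 and 179.7 in hypoxia against 51.8 and 54.3 in normoxia, a difference of 1.29, and with the mean of both sets the call was lost (-0.17, adjusted p = 0.656). PMPCA, the substrate-binding subunit, had 1966 and 2145 on the hypoxia arrays, against 2483 and 2944 on the normoxia arrays, and was not called (log2 difference -0.39 ± 0.18 SE, adjusted p = 0.115). Its groups did not overlap, and it passed with hybridization control scaling (-1.84, adjusted p = 0.0236). Without hypoxia B, where the spread comes from the normoxia arrays alone, its difference was -0.45. The difference between the subunits was not tested.

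Members varied more between the hypoxia arrays than between the normoxia arrays, with a median SD on the log2 scale of 0.31 in hypoxia and 0.065 in normoxia, beside 0.27 and 0.15 over all genes tested. Hypoxia B was below hypoxia A in 22 of 30 members (73.3%), against 49.7% of all tested genes, with a median difference of -0.25 against 0.00. Between the normoxia arrays the median difference of the members was -0.02. Within each letter 25 of 30 members were lower in hypoxia, with a median log2 difference of -0.74 for exp A and -0.96 for exp B.

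Of 20 further probe sets that belong to 17 of these genes and passed the same signal filter, 15 had the sign of the brightest one and 5 the opposite sign. The opposite ones were those of TOMM20, TIMM17A, TOMM22, TIMM50 and PMPCB. In the last 4 the disagreeing set was the dimmest that passed, with a mean signal of 109 to 197, whereas in TOMM20 both sets were bright.

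**Figure D4:**
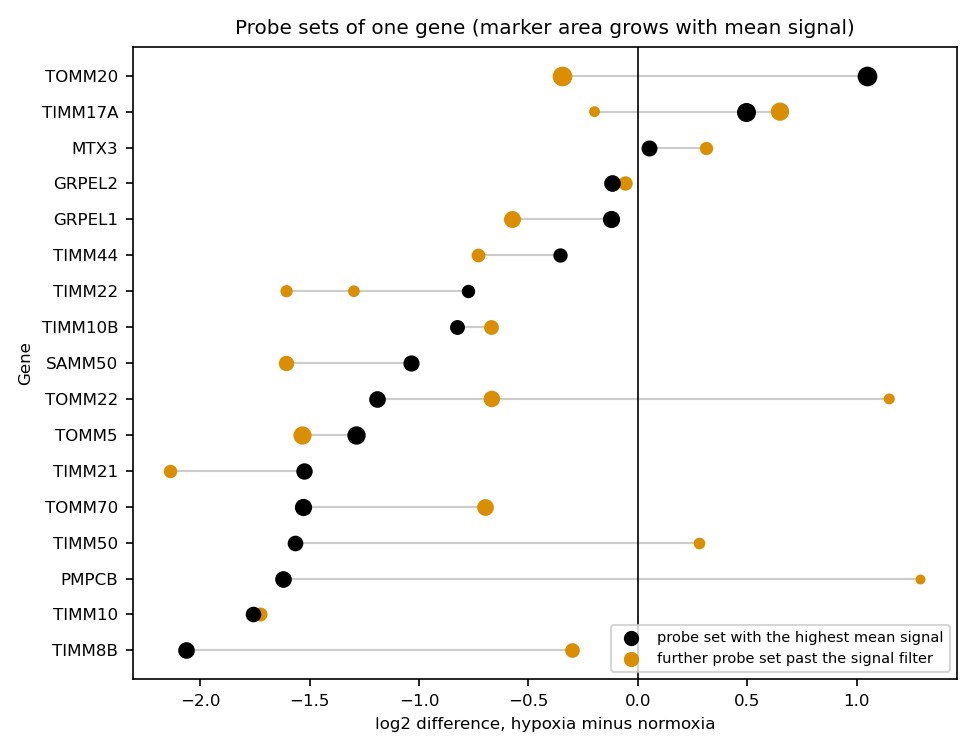
Log2 difference between hypoxia and normoxia for every probe set past the signal filter, in the 17 import genes with more than 1; black marks the brightest probe set, orange the others, and marker area grows with mean signal. Points of most genes lie on the same side of 0, while TOMM20 has equally large markers at 1.05 and -0.34, and small orange markers cross 0 for TIMM17A, TOMM22, TIMM50 and PMPCB.

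Genes that work beside the translocases were taken as 7 lists of 43 genes, 40 of them tested. Of these 19 were called lower, 2 higher and 19 were not called, and their median log2 difference was -0.58. Over all genes tested 22.8% were called lower and 15.3% higher, and the counts of the lists below were not tested against these shares. In matrix motor and folding, 4 of 6 fell and none rose. These were the co-chaperonin HSPE1 (-1.61), DNAJC19 (-1.46), a J protein of the motor, the mitochondrial HSP90 TRAP1 (-1.39), and HSPA9 (-0.94), which drives the motor. With the mean of all probe sets the calls of TRAP1 (-0.80, adjusted p = 0.251), HSPA9 (-0.55, adjusted p = 0.0735) and, in a list below, LETM1 (-0.28, adjusted p = 0.608) were lost. In the disulfide relay, which folds small TIMs as they enter, 2 of 5 fell: CHCHD4 (-2.42), the import oxidoreductase, and AIFM1 (-1.65), its partner. CHCHD4 had 233 and 322 on the hypoxia arrays, against 1509 and 1631 on the normoxia arrays (log2 difference -2.42 ± 0.26 SE, adjusted p = 2.46e-04). Its groups did not overlap. On hypoxia A, CHCHD4 and AIFM1 (235) lay under the highest Bacillus control of that array (305). In inner membrane insertion, a list not limited to insertases, 3 of 4 fell: LETM1 (-1.34), MAIP1 (-1.10) and the insertase gene OXA1L (-0.54). COX18 (-0.26) was not called. Without normoxia A the calls of LETM1 (-1.29, adjusted p = 0.0829) and OXA1L (-0.56, adjusted p = 0.221) were lost. Without normoxia B those of LETM1 (-1.40, adjusted p = 0.0599), OXA1L (-0.53, adjusted p = 0.236) and MAIP1 (-0.99, adjusted p = 0.0874) were.

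In precursor maturation 2 of 5 fell, the intermediate peptidase MIPEP (-2.38) and the inner membrane peptidase subunit IMMP2L (-1.11), the call of IMMP2L being lost in 8 of 17 alternatives, in 1 of which its sign turned. MIPEP read 29.2 and 69.5 in hypoxia against 345 and 337 in normoxia, so it passed the signal filter through normoxia alone, and its hypoxia values lay under the Bacillus controls. Of 8 quality control proteases 4 fell: HTRA2 (-2.00), PARL (-1.68), OMA1 (-1.64) and CLPP (-0.84), the call of PARL being lost with the mean of all probe sets (-0.75, adjusted p = 0.149). In outer membrane insertion and MICOS, which shapes the cristae, 4 of 9 fell and 1 rose. The 4 were MTCH2 (-1.76), an outer membrane insertase, and the MICOS subunits APOO (-1.55), MICOS10 (-1.52) and MICOS13 (-1.50). MTCH1, named after its value was seen, rose (0.61, but -0.85 with hybridization control scaling), a call lost without hypoxia B (0.53, adjusted p = 0.0509) or normoxia A (0.47, adjusted p = 0.114). Of 3 tested cytosolic chaperones, which deliver precursors to TOMM70, HSP90AA1 rose (log2 difference 0.73 ± 0.23 SE, adjusted p = 0.0318), but its difference was -0.23, adjusted p = 0.0664 under quantile normalization and -0.73 with hybridization control scaling. It lost its call without hypoxia A (0.76, adjusted p = 0.107) or hypoxia B (0.69, adjusted p = 0.136). Without normoxia A the calls of MIPEP (-2.36, adjusted p = 0.228), IMMP2L (-1.17, adjusted p = 0.104), CLPP (-0.96, adjusted p = 0.0860) and OMA1 (-1.35, adjusted p = 0.0734) were lost. Without normoxia B those of MIPEP (-2.39, adjusted p = 0.177), IMMP2L (-1.04, adjusted p = 0.157), CLPP (-0.72, adjusted p = 0.206) and MICOS13 (-1.30, adjusted p = 0.0514) were. Of the 40 genes, 13 were called lower without normoxia A and 12 without normoxia B.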

How the data were processed

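RNA of HCT116 cells (biotin-labelled cRNA from 6 µg total RNA) was measured on 4 arrays, 2 at 1% and 2 at 21% oxygen. The authors deposited 1 intensity per probe set for 54675 probe sets, processed by MAS5 according to the submitters' processing notes, with a version not given in the sources used here. Leaving out the lowest and highest 2% of values, every array averaged 500.1, as after scaling to a common target, which removes a change common to most genes. No 2 arrays shared more than 1 identical value.

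Genes were named through the platform annotation, and 19735 of 19777 matched a RefSeq gene table. Each gene was represented by its brightest probe set over the 4 arrays, and tested at a mean of 97.4 or more, the median of all probe set means. The log2 scale used a pseudocount of 23.7, the 25th percentile. Oxygen groups were compared over all genes with limma 3.58.1 in R 4.3.3 (lmFit, eBayes with intensity trend, two-sided) and Benjamini-Hochberg adjustment, called at an adjusted p under 0.05, and the script was tested on simulated data. Precision is limited by the number of arrays.

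Members and lists were chosen with earlier results of these data known. All members may be named, array by array where called with a difference of at least 1 log2 unit or the partner of such a gene, and up to 4 called genes per further list. Alternatives were a replicate block, other pseudocounts, scalings, filters, probe set choices and variance models, and leaving out each array. No protein sequence was used here. Plots were made in matplotlib 3.10.9 under Python 3.11.15.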

Additional observations from a re-analysis of the deposited data

How the results depend on the processing

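The number of members called lower was between 14 and 22 in 10 of the 13 settings that kept all arrays, 10 with the mean of all probe sets and 10 without probe sets whose names end in _x_at or _s_at, which can cross-hybridize, and 12 with eBayes without trend. It was 11 to 19 without 1 array. The number called higher was 0 with the mean of all probe sets, 1 without _x_at or _s_at sets, 1 with eBayes without trend, 0 scaled to hybridization controls and 1 to 3 without 1 array. Of all 12636 genes 5514 were called lower with hybridization controls, 1991 with the mean of all probe sets and 1811 without trend, against 2876 in the main fit. Without _x_at or _s_at sets 1946 of 9684 genes were called lower. Without trend the calls of MTX1, MTX2, SAMM50, TOMM40, TIMM9 and TIMM17A were lost. The median of the members moved to -0.56 with the mean of all probe sets and -0.65 without _x_at or _s_at sets. Scaling to the hybridization controls, spiked in after labelling, moved the median of all tested genes to -1.40 and of the members to -2.35, and split called genes 0.93% higher, against 40.1% as deposited and 49.7% scaled to the 75th percentile, where the median of all genes was 0.11. The mean log2 signal of the hybridization controls itself differed between normoxia A and B (11.3 and 12.2). Under the hybridization controls the signs of TOMM20 (-0.41), TIMM9 (-0.50), TIMM17A (-0.96), MTCH1 (-0.85) and HSP90AA1 (-0.73) turned. TOMM20 also turned with the probe set of highest median (-0.34), TIMM17A (-0.20) and TIMM50 (0.28) turned without _x_at or _s_at sets, IMMP2L with the mean of probe sets (0.38) and HSP90AA1 under quantile normalization (-0.23). Other import genes called higher were 0 under quantile normalization, hybridization controls, no _x_at or _s_at sets and eBayes without trend, 1 without the filter and 1 with the mean of probe sets, and 0 to 2 without 1 array; called lower were 33 under hybridization controls, 12 with eBayes without trend and 12 to 23 without 1 array. All genes called numbered 4803, 3141 without trend, 2575 without normoxia A, 2653 without normoxia B, and up to 6257 without 1 array, the lone array being assumed to vary like the other group. The letters A and B were not shown to pair arrays (correlation of their deviations 0.09), and with them as a replicate block 17 members were called lower and 3 higher. The cause of these changes was not tested.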

Other observations

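Some import genes share a start region with a gene on the opposite strand. In RefSeq's GRCh38.p14 starts, looked at after the members' values were seen, 11 genes on the opposite strand began within 1000 bases of a member's start, and 8 of them were tested. Of these 1 was called lower, 1 higher and 6 were not called, where 22.8% of all tested genes were called lower and 15.3% higher. ENTR1, whose start lies 44 bases from that of PMPCA, read 812 and 1034 in hypoxia against 1733 and 1785 in normoxia (log2 difference -0.92 ± 0.21 SE, adjusted p = 0.00773), while PMPCA itself was not called. YIPF2, 172 bases from TIMM29, read 900.5 and 991 in hypoxia against 434 and 441 in normoxia (1.07 ± 0.25 SE, adjusted p = 0.00855), beside a difference of -0.01 for TIMM29. PARG, 26 bases from TIMM23B, had a difference of -0.65 (adjusted p = 0.0653) beside -3.20 for TIMM23B. ARFIP2, 170 bases from TIMM10B, had 0.18 beside -0.83. Differences between neighbours were not tested.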
